A study of Sylvia borin with 20 samples.

Results

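The proteasome is the protease that removes proteins tagged with ubiquitin, and its expression was followed here in whole blood of garden warblers (Sylvia borin) before and after refueling. Members were all gene symbols that begin with PSMA to PSMG and a number, with PSME4, POMP and the akirin genes, which gave 39 of the 20898 symbols in the deposited tables. The rule rests on gene symbols. By textbook role they were 6 genes of the core alpha ring, 5 of the core beta ring, 6 of the base, 8 of the lid, 3 activators or inhibitors, 8 assembly factors and 1 akirin. The symbol rule also took 2 genes that are not subunits, PSMC3IP and PSME3IP1, and these are kept apart. Of 53 symbols in the lists of roles, 14 were not analysed here, namely PSMA1 and PSMA8, the active-site genes PSMB5 and PSMB6, the immune and thymus beta genes PSMB8, PSMB9, PSMB10 and PSMB11, the base genes PSMC4, PSMD2 and PSMD4, the activators PSME1 and PSME2, and AKIRIN1.

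Each of 10 wild birds caught on spring migration was bled on day 1, when it was lean, and again on day 5, when it was fat, after caging with free food and water, which gave 10 lean and 10 fat libraries. Fat state, days in the cage and sampling day therefore changed together and cannot be told apart. No drug or altered gene is named for either group, and age and sex are not given in the sources used here. Avian blood mixes nucleated red cells, thrombocytes and white cells.

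In the core particle, outer rings of alpha subunits gate entry and inner rings of beta subunits hold the active sites. The regulatory particle caps the core, with a base of ATPases that unfold substrates and a lid that removes their ubiquitin. Other caps, the activators, open the gate without ubiquitin, and dedicated chaperones put the rings together. Maturing red cells are known to rely on this system to clear proteins they no longer need. AKIRIN2 was found in human cells to bring assembled proteasomes into the nucleus.

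Levels are given as FPKM, which is scaled for gene length and library size, after division by a median-of-ratios factor per library, and are called scaled FPKM. Aligned depth was 0.882 to 4.71 gigabases per library, with medians of 1.66 in lean and 2.34 in fat libraries. The lean libraries had 6776 to 8623 symbols above 0 and the fat libraries 6467 to 7667. Summed red cell markers were 120973 to 185369 scaled FPKM on day 1 and 163476 to 298744 on day 5, higher when fat in all 10 birds, and 2 of the 9 genes fitted were called higher. The hemoglobin gene HBAA alone made up 95.5% of the lean and 96.3% of the fat sum. HBAA was higher when fat in all 10 birds, by 0.35 to 0.90 on the log2 scale. It was not called (log2 fold change 0.62, standard error 0.33, adjusted p = 0.221 from limma). Without bird as a term the standard error was 0.23 and the adjusted p 0.110. Both standard errors are moderated toward a variance trend over all genes, so they are not the spread of HBAA over the 10 birds alone. The lack of a call is therefore not read as no change. The paper reports that HBAA expression differed between the refueling states. SLC4A1 of the same list was lower when fat in 7 birds. The summed thrombocyte markers went from a median of 52.1 (28.2 to 115.7) in lean to 30.3 (19.004 to 45.2) in fat libraries and were lower when fat in all 10 birds, with 5 of the 5 genes fitted called lower. White cell markers were near 0, with sums of at most 1.46 for T cells, 5.03 for B cells and 14.5 for monocytes and heterophils. They were called lower for 0 of 3, 1 of 3 and 3 of 4 genes fitted, and CD3E, CD14 and LYZ were listed at 0 in all 20 libraries, as was THBS1 of the thrombocyte list. Beside these marker counts, 5.18% of all genes fitted were called higher and 8.08% lower in fat birds. In such mixed blood, fewer cells of a type and less RNA per cell cannot be told apart.

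Most members were well expressed in blood, although genes of the same ring differed widely in level. Of the 39 members, 30 were above 0 in every library, 8 were listed at 0 in some libraries and 1 in all of them. There were 8 genes with a mean of at least 50 scaled FPKM, which held 76.2% of the summed level of the 37 members fitted. Another 17 genes lay between 10 and 50, 8 between 1 and 10, and 4 below 1. PSMD9, a chaperone of the base, was highest with 252 scaled FPKM on average over the 20 libraries. PSMD7, a lid subunit that pairs with the deubiquitinase PSMD14, followed with 246, and POMP, which guides beta ring assembly, with 189. PSMB7, which carries the trypsin-like active site, had 167, the base ATPases PSMC5 and PSMC2 had 130 and 82.0, AKIRIN2 had 108 and the alpha subunit PSMA7 had 81.1.

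**Figure D1:**
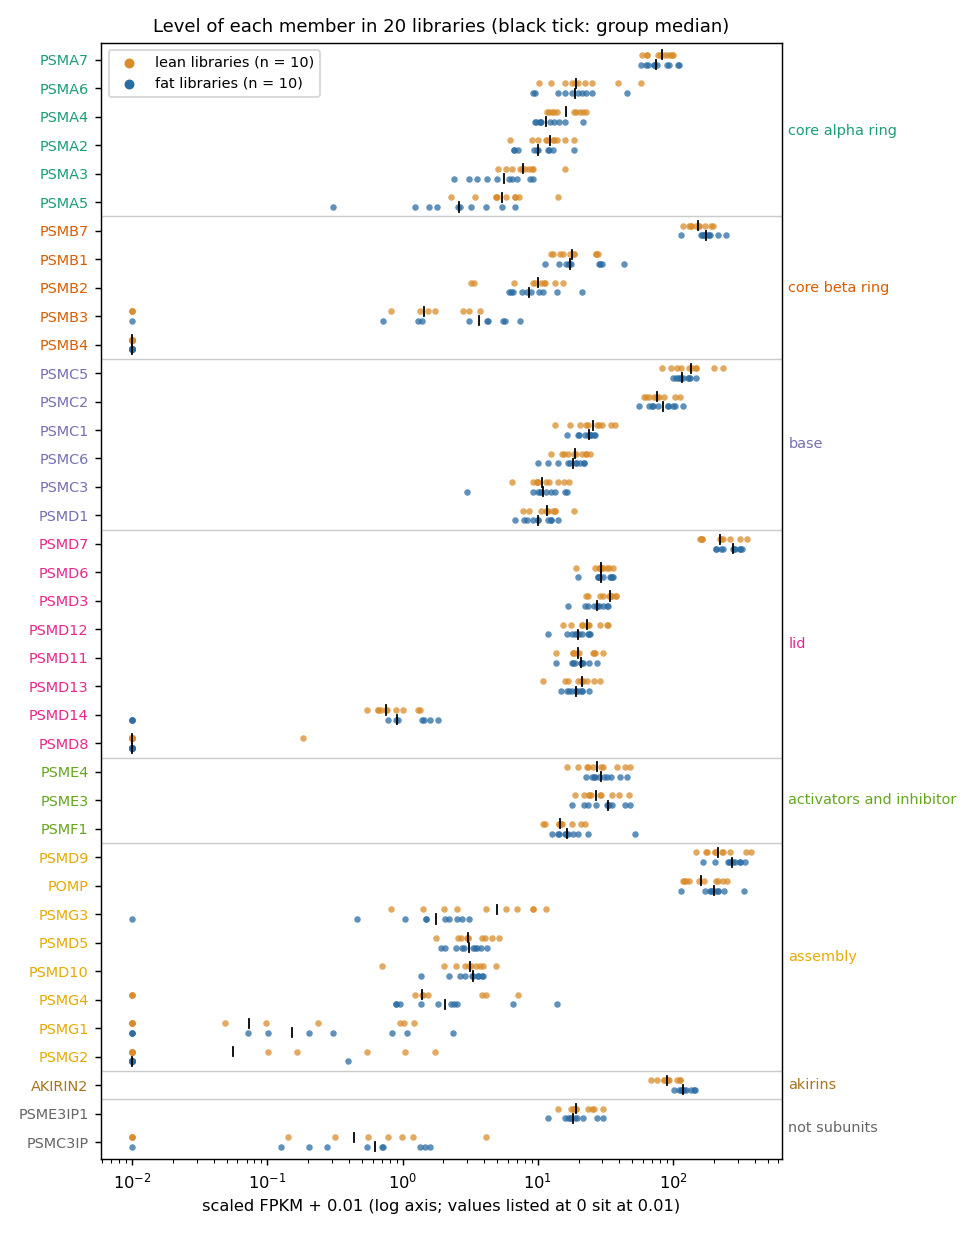
Scaled FPKM (log axis) of each of the 39 members in 10 lean and 10 fat libraries, grouped by role, with the group median as a black tick. Levels run from PSMD9 at a mean of 252 down to PSMB4, listed at 0 in all 20 libraries, and the lean and fat points overlap for each of the 37 members fitted.

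Subunits that enter the core in equal copies were far from equal in RNA. Mean scaled FPKM in the alpha ring ranged 17.9-fold, from 4.54 for PSMA5 to 81.1 for PSMA7. In the beta ring it ranged 68.8-fold among the 4 genes fitted, from 2.42 for PSMB3 to 167 for PSMB7. The base ranged 11.7-fold, from 11.1 for PSMD1, its large scaffold subunit, to 130 for PSMC5. The lid was even but for its ends, with PSMD3, PSMD6, PSMD11, PSMD12 and PSMD13 between 19.8 and 29.8, PSMD7 at 246 and PSMD14, the enzyme that cuts ubiquitin from substrates, at 0.864. Reads of the garden warbler were mapped to the zebra finch genome, and the part of gene-to-gene divergence in these levels was not tested.

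PSMB4 and PSMD8 were the 2 members too low to fit. PSMB4, a beta subunit, was listed at 0 in all 20 libraries, and PSMD8, a lid subunit, was above 0 only in the lean library of bird 3, at 0.174 scaled FPKM. They are also the only members that lie on sequences not assigned to a chromosome in the genome used. Among all symbols on such sequences, 65.8% of 1449 were listed at 0 in every library, against 37.2% of 19449 on chromosomes. A listing at 0 is therefore not read as absence from blood.

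Few members differed between lean and fat birds in the scaling used here, and more were lower when fat in the deposited scalings. Of the 37 members fitted, 3 were called at an adjusted p under 0.05 (limma with bird as a term, Benjamini-Hochberg adjusted over 7800 genes), AKIRIN2 higher and PSMA5 and PSMG3 lower in fat birds. These are 8.11% of the members, where 13.3% of all genes fitted were called. By direction, 5.18% of all genes were called higher and 8.08% lower in fat birds. At an unadjusted p under 0.05 there were 12 members, 6 higher and 6 lower, or 32.4% against 30.1% of all genes (11.6% higher and 18.5% lower). Estimates were above 0 for 17 members and below 0 for 20, with a median of −0.07 on the log2 scale (fat over lean) beside −0.10 over all genes fitted. A limit of at least 10 scaled FPKM in mean was chosen after the values were seen. Among genes above it, the median was −0.07 for 25 members and 0.17 for all 1643 genes. Abundant members thus lay 0.24 below all genes above that limit, which sets a floor and does not match levels. Without bird as a term, AKIRIN2 was the 1 member called, against 4.76% of all genes (1.49% higher and 3.27% lower). At an unadjusted p under 0.05 that model gave 1 member higher and 4 lower, where 22.2% of all genes passed (7.38% higher and 14.8% lower). With FPKM as deposited 0 members were called higher and 12 lower, or 32.4% of members where 18.5% of all genes were called lower. With TPM as deposited 0 were called higher and 16 lower, or 43.2% where 25.1% of all genes were. The median of all genes fitted was itself −0.35 with FPKM and −0.43 with TPM as deposited, so a shift shared by all genes enters each estimate in these scalings. Relative to the median of all genes in the same scaling, the median of the members lay between −0.15 and 0.03 over the 4 scalings run. Among genes of at least 10 scaled FPKM it lay between −0.24 and −0.21. All but quantile normalization differ by a factor per library, which largely cancels in these contrasts, so their closeness was fixed in advance. Quantile normalization, the separate check, gave −0.15 and −0.21.

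**Figure D2:**
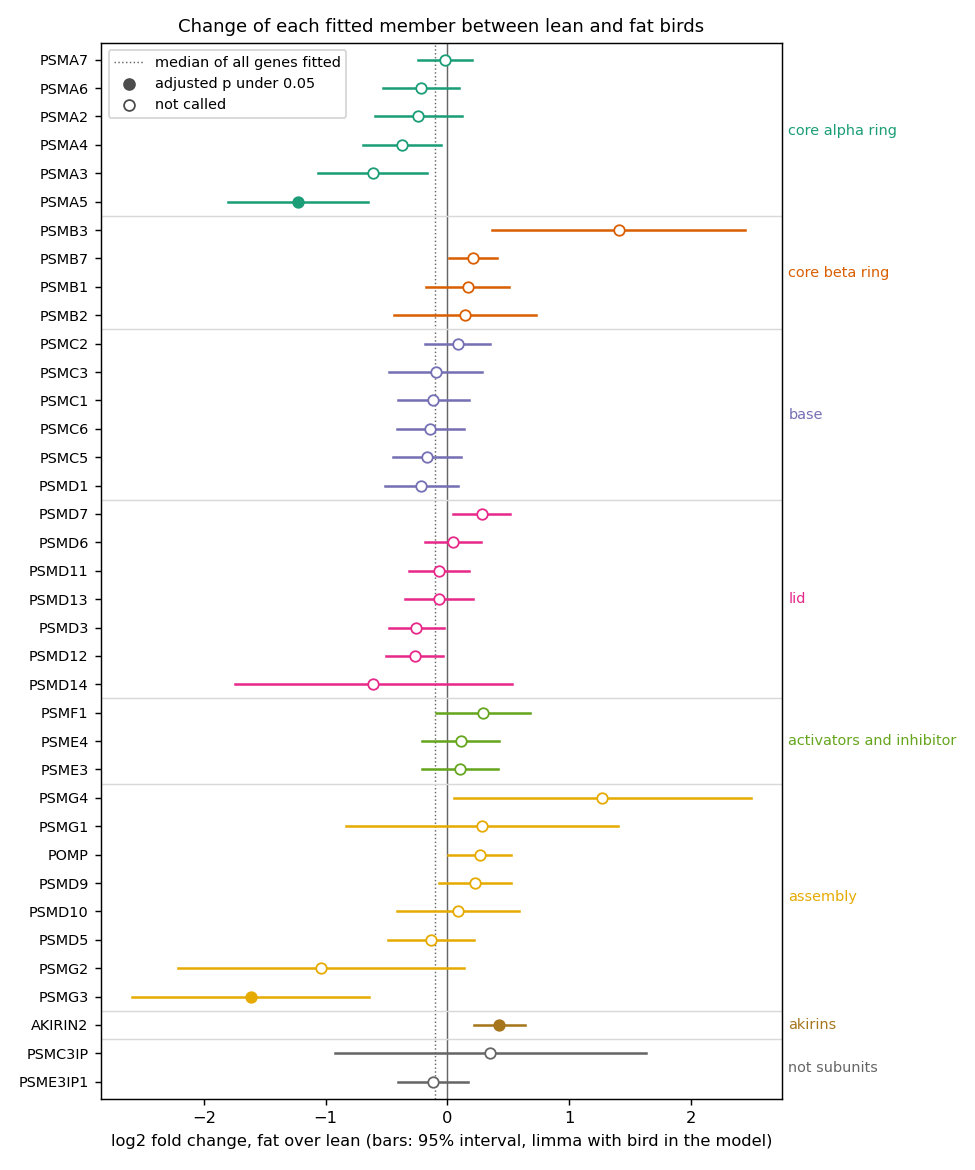
Log2 fold change (fat over lean) of the 37 members fitted with 95% intervals from limma, grouped by role, with filled points for adjusted p under 0.05 and a dotted line at the median of all genes. AKIRIN2 (0.42), PSMA5 (−1.22) and PSMG3 (−1.62) are the filled points, and the widest intervals belong to genes of low level.

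Within the scaling used here, precision was high for the abundant members. The limit of 10 scaled FPKM left 25 members with standard errors of the log2 fold change between 0.09 and 0.18. All 25 had a 95% interval that stayed within a 2-fold change in either direction, and 21 stayed within 1.5-fold. These intervals leave out the choice of scaling. The median log2 fold change of the 25 was −0.07 here, −0.38 with FPKM and −0.47 with TPM as deposited. One of these 25 was called, or 4%, and among all 1643 genes above the limit 26.2% were called. The difference between these shares was not tested. The 12 members below the limit had standard errors between 0.16 and 0.60, with a median of 0.47 against 0.13 above the limit. Changes in most of them were thus measured less precisely, and the smallest detectable change was not computed. The called genes PSMA5 and PSMG3 are among these 12.

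AKIRIN2, a small nuclear protein known in mouse and fly as a partner of NF-kB signaling, was higher in fat birds. The paper lists AKIRIN2 as a hub (highly connected) gene tied to the fat state in its co-expression network of the same libraries. The result here is therefore not independent of that one. It lay between 68.3 and 113 scaled FPKM in lean libraries (median 90.7) and between 102 and 146 in fat libraries (median 119). The ranges overlapped only in part, and the fat library was higher in 9 of 10 birds, all but bird 3. The means were 92.2 ± 14.7 and 123 ± 14.1 (SD, n = 10 each). On the log2 scale the difference was 0.42 (standard error 0.10, 95% interval 0.21 to 0.63, adjusted p = 0.0155 from limma). Without bird as a term the adjusted p was 0.0333. It stayed called with each bird left out in turn (adjusted p from 0.0136 to 0.0394) and was not called in the 8 birds whose codes match between labels and sample table (0.0661). The call rests on the scaling, since the log2 fold change was 0.28 with quantile normalization (adjusted p = 0.0911), 0.11 with FPKM as deposited (0.517) and 0.02 with TPM as deposited (0.918). Relative to the median of all genes it was above 0 in each of these scalings, by 0.23 to 0.52. Relative to the median of genes with a mean of at least 10 it was above 0 by 0.19 to 0.25 (0.25 in the scaling used here). The scaling used here and the deposited FPKM and TPM differ by a factor per library, which largely cancels in these contrasts. Only quantile normalization is thus a separate check, and it gave the lowest values, 0.23 and 0.19.

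In the alpha ring 1 gene fell and the other estimates pointed the same way. All 6 of its genes had estimates below 0, from −1.22 for PSMA5 to −0.02 for PSMA7, with a median of −0.31. Of these, 1 was called, where 8.08% of all genes fitted were called lower. At an unadjusted p under 0.05 from limma 3 of the 6 were lower, where 18.5% of all genes fitted were. The difference from these shares was not tested. PSMA5, one of the subunits of the gate-forming ring, lay between 2.28 and 14.2 scaled FPKM in lean libraries (median 5.40) and between 0.297 and 6.80 in fat libraries (median 2.60). The groups overlapped, yet the fat library was the lower one in all 10 birds. The fall was from 6.11 ± 3.22 to 2.96 ± 1.997 (SD, n = 10 each), by 1.22 on the log2 scale (standard error 0.27, adjusted p = 0.0128 from limma). It was called with each bird left out in turn (adjusted p from 0.00508 to 0.0299) and in every scaling run, but not without bird as a term (0.0726). Bird 9 had the largest change, −3.65 on the log2 scale. The log2 fold change of PSMA5 was −0.95 without bird 9 and between −1.32 and −1.20 without any other bird. The summed thrombocyte markers were lower in the same libraries, and their part in the fall of PSMA5 was not tested.

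Other alpha genes had smaller differences. PSMA3 was 8.29 ± 3.002 in lean and 5.58 ± 2.33 scaled FPKM in fat libraries and lower in 8 of 10 birds (adjusted p = 0.0657 from limma), and its lean value in bird 8, 15.9, stood apart. It was called lower without bird 9, with sample weights, with the stricter filter and with FPKM and TPM as deposited. PSMA4 was lower in 9 of 10 birds, 16.5 ± 4.31 against 12.8 ± 3.72 (adjusted p = 0.109). PSMA2 and PSMA6 had log2 fold changes of −0.24 and −0.22, and PSMA6 reached 58.0 in lean and 45.8 in fat blood of bird 4, the highest value of each group. PSMA7, the most abundant alpha gene, had the estimate nearest to 0, with 81.4 ± 15.1 in lean and 80.8 ± 18.5 in fat libraries. Its 95% interval ran from −0.24 to 0.20, and its estimate kept within −0.06 and 0.05 with each bird left out. With FPKM and TPM as deposited PSMA4 and PSMA6 were called lower too, as was PSMA7, at −0.33 and −0.43, and with TPM also PSMA2.

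No beta ring gene passed the test. All 4 genes fitted had estimates above 0, from 0.14 for PSMB2 to 1.41 for PSMB3, with a median of 0.19 that turned to −0.12 with FPKM and −0.22 with TPM as deposited. Of these 4 genes 0 were called by limma, while 2 had an unadjusted p under 0.05. Over all genes fitted these shares were 13.3% and 30.1%. PSMB7 lay between 118 and 198 scaled FPKM in lean libraries (median 152) and between 114 and 247 in fat libraries (median 176). The fat library was the higher one in 8 of 10 birds, with a log2 fold change of 0.21 (95% interval 0.01 to 0.41, adjusted p = 0.143 from limma), and the estimate turned to −0.10 with FPKM and −0.20 with TPM as deposited. PSMB3 was listed at 0 in 3 lean libraries and 1 fat library, with medians of 1.43 and 3.65, and was higher when fat in 7 birds (adjusted p = 0.0692). Without bird 2 it was called (adjusted p = 0.0478). PSMB1 reached 43.1 in fat blood of bird 9, its highest value, and PSMB2 had 3.18 to 15.4 in lean blood and 6.14 to 21.0 in fat blood, and both had intervals that span 0. PSMB2 turned to −0.16 and −0.26 with FPKM and TPM as deposited, where the median of all genes fitted was −0.35 and −0.43.

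The 2 rings were also set side by side within each bird. The median change of the alpha genes was below 0 in 9 of 10 birds, between −0.82 and 0.23 on the log2 scale, and that of the beta genes above 0 in 7 birds, between −0.36 and 1.48. The beta median exceeded the alpha median in all 10 birds, by 0.23 to 1.25 (mean 0.69 ± 0.35, SD over birds). No test was made of this difference, which was noticed in the data and rests on 6 and 4 genes, and it is a contrast within libraries.

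**Figure D3:**
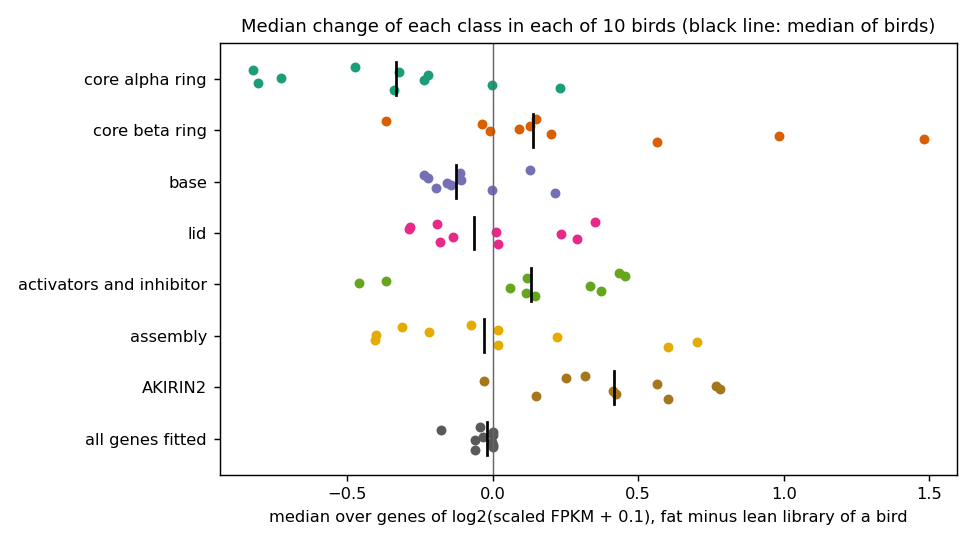
Median change of each class on the log2 scale (fat minus lean) in each of the 10 birds, 1 point per bird, with the median of birds as a black line. The alpha ring lies below 0 in 9 birds and AKIRIN2 above 0 in 9, while the base stays between −0.24 and 0.22 and the lid between −0.29 and 0.35.

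The base, whose ATPases thread substrates into the core, had the smallest spread over birds of the classes with more than 1 gene, an SD of 0.15 for its median change. Of its 6 genes 5 had estimates below 0, from −0.21 for PSMD1 to 0.08 for PSMC2, and 0 were called by limma, none of them at an unadjusted p under 0.05 either. Over all genes fitted these shares were 13.3% and 30.1%. PSMC5 had 82.5 to 235 scaled FPKM in lean blood (median 135) and 99.3 to 149 in fat blood (median 115.6). The lean spread was wider, 33.8% of the mean against 12.6%. PSMC2 was 79.3 ± 16.9 in lean and 84.6 ± 19.5 in fat libraries, higher when fat in 6 birds. PSMD1 was 11.98 ± 2.94 and 10.3 ± 2.34. PSMC1, PSMC3 and PSMC6 had log2 fold changes of −0.11, −0.10 and −0.14. PSMC5 and PSMD1 were called lower with FPKM as deposited (−0.48 and −0.52) and with TPM as deposited (−0.57 and −0.62). PSMC6 was called lower in both of these scalings and PSMC1 with TPM.

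In the lid 0 of 7 genes were called by limma and 3 had an unadjusted p under 0.05, in both directions. Over all genes fitted these shares were 13.3% and 30.1%, and the difference from them was not tested. PSMD7, at 158 to 354 scaled FPKM in lean (median 224) and 207 to 324 in fat libraries (median 279), was higher when fat in 8 of 10 birds, with a log2 fold change of 0.28 (95% interval 0.05 to 0.52, adjusted p = 0.105). The scaffold subunits PSMD3 and PSMD12 had estimates of −0.26 and −0.27 and were each lower when fat in 9 of 10 birds, all but bird 1 (adjusted p = 0.124 and 0.113). Without bird 1, and with FPKM or TPM as deposited, both were called lower. In these scalings PSMD7 turned to −0.028 and −0.12, and with TPM PSMD11 and PSMD13 were called lower. PSMD14 had nearly the same mean in both groups, 0.852 and 0.876, but its values spread in fat libraries, being listed at 0 in birds 1, 2 and 3 and between 0.764 and 1.81 in the others, whereas all 10 lean libraries lay between 0.531 and 1.34. PSMD6, PSMD11 and PSMD13 had log2 fold changes of 0.04, −0.07 and −0.07, with intervals that span 0.

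**Figure D4:**
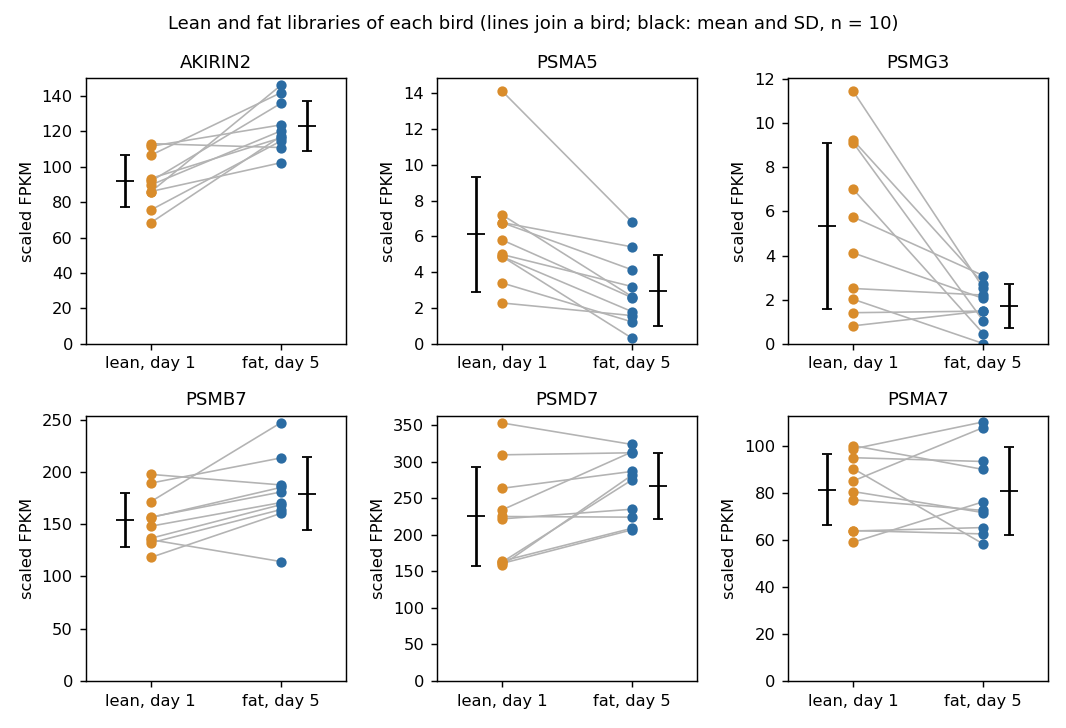
Scaled FPKM of AKIRIN2, PSMA5, PSMG3, PSMB7, PSMD7 and PSMA7 in the lean and fat library of each bird, with lines that join a bird and the mean and SD (n = 10) in black. PSMA5 is lower when fat in all 10 birds and AKIRIN2 higher in 9, while the lines of PSMA7 cross.

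None of the 3 activators or inhibitors was called by limma, at an adjusted p or at an unadjusted p under 0.05, where all genes fitted gave 13.3% and 30.1%. PSME3, the nuclear activator, was 29.3 ± 8.94 scaled FPKM in lean and 31.6 ± 9.43 in fat libraries, with a log2 fold change of 0.10 (95% interval −0.21 to 0.41, adjusted p = 0.674 from limma). PSME4, which is known for roles in chromatin and germ cells, was 29.8 ± 10.4 and 31.2 ± 7.30, a log2 fold change of 0.11 (95% interval −0.21 to 0.42). PSMF1, which inhibits the core in purified form, had 10.9 to 22.3 in lean blood and 12.7 to 52.6 in fat blood and was higher when fat in 9 of 10 birds, all but bird 4 (adjusted p = 0.294). The highest PSMF1 value was that of fat bird 8, and without this bird its log2 fold change went from 0.29 to 0.12. All 3 estimates turned below 0 with FPKM or TPM as deposited, where the median of all genes fitted was −0.35 and −0.43.

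Among the 37 members fitted, assembly factors held both the highest and the lowest levels. Of the 8 assembly factors 0 were called higher and 1 lower by limma, where 5.18% and 8.08% of all genes fitted were. At an unadjusted p under 0.05, 2 were higher and 1 lower, where 11.6% and 18.5% of all genes were. PSMG3, which pairs with PSMG4 to support alpha ring assembly, lay between 0.805 and 11.5 scaled FPKM in lean libraries (median 4.93) and between 0 and 3.09 in fat libraries (median 1.76). The fat library was lower in 8 of 10 birds, and 6 lean libraries lay above the highest fat one. The fall was from 5.35 ± 3.75 to 1.70 ± 1.00 (SD, n = 10 each), by 1.62 on the log2 scale (standard error 0.45, adjusted p = 0.0337 from limma). The call was lost without bird 1, 3, 5, 6, 8 or 10 (adjusted p from 0.0154 to 0.0816 over the 10 birds), and without bird as a term (0.0899). It was also lost in the 8 birds (0.138), with pseudocount 0.01 (0.0714), without a filter (0.0851), with quantile normalization (0.0539) and with a depth covariate (0.0705). Its partner PSMG4 moved the other way in estimate, with medians of 1.39 and 2.03 and a log2 fold change of 1.27 that was not called (adjusted p = 0.149), and was listed at 0 in 3 lean libraries. The pair PSMG1 and PSMG2 was at the edge of detection, with PSMG2 listed at 0 in 5 lean and 9 fat libraries and at most 1.72.

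POMP had 118 to 249 scaled FPKM in lean blood (median 162) and 115 to 335 in fat blood (median 199). The fat library was higher in 7 birds, with a log2 fold change of 0.27 (95% interval 0.01 to 0.53, adjusted p = 0.153 from limma) that turned to −0.04 with FPKM and −0.14 with TPM as deposited. The base chaperone PSMD9 was 235 ± 74.3 and 268 ± 52.3 (adjusted p = 0.289), and its estimate of 0.22 likewise turned below 0 in the 3 other scalings. PSMD5 and PSMD10, the other base chaperones among the members, were near 3 scaled FPKM in both groups. They were at 3.37 and 3.02 for PSMD5 and 3.02 and 3.05 for PSMD10. Of the 2 genes that are not subunits, PSME3IP1, which binds PSME3, was 21.2 ± 4.92 in lean and 19.7 ± 5.47 in fat libraries. PSMC3IP, a factor of meiotic recombination, had a mean of 0.744 and was listed at 0 in 3 lean libraries and 1 fat library.

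The changes of members within birds were weakly related. Those of 2 members within birds had a median Pearson r of 0.07 over the 666 pairs of the 37 genes (10 birds), and 0.11 over the 300 pairs of abundant members, beside 0.05 for all genes above the same limit. The genes share libraries and scaling, so these are descriptions. In at least 9 of 10 birds, 2 members were higher when fat (AKIRIN2 and PSMF1) and 4 were lower (PSMA4, PSMA5, PSMD3 and PSMD12), or 5.41% and 10.8%, where all genes gave 6.4% and 8.17%.

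Genes that work with the proteasome were followed as 41 listed symbols, of which 38 were fitted, with 1 called higher and 3 called lower in fat birds. Of all genes fitted, 5.18% were called higher and 8.08% lower, and the list was not tested against these shares. DDI2, the protease that activates the proteasome gene regulator NFE2L1 in human cells, was higher when fat in all 10 birds, 18.9 ± 6.16 against 26.4 ± 5.63 scaled FPKM (log2 fold change 0.52, adjusted p = 0.0137 from limma). DDI2 was not called without bird as a term (adjusted p = 0.0845 from limma), in the 8 birds (0.0643) or with FPKM or TPM as deposited (0.259 and 0.515). In the deposited scalings its log2 fold changes were 0.22 and 0.12. NFE2L1 itself was 0.963 ± 0.640 and 0.574 ± 0.147, while NFE2L2 was 139 ± 33.8 and 151 ± 20.7, and neither was called. MAFF, a small Maf protein that pairs with these regulators, fell in 9 of 10 birds, from 1.60 ± 1.19 to values of at most 0.433, and was listed at 0 in 4 fat libraries (adjusted p = 0.00397). Its relatives MAFG and MAFK were not called.

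ZFAND2A, a stress-induced protein that binds the proteasome, fell from 228 ± 114 to 89.3 ± 37.9 scaled FPKM, a log2 fold change of −1.27 (limma, adjusted p = 0.0119), lower in 9 of 10 birds. It was not called in the 8 birds with matching codes (0.061). The polyubiquitin gene UBB fell from 21.9 ± 10.5 to 15.8 ± 7.23 (adjusted p = 0.0424), also lower in 9 of 10 birds. The call for UBB was lost without bird 2, 3, 4, 5, 6, 7, 8 or 10 (adjusted p up to 0.0913) and without bird as a term (0.322). Subunits outside the symbol rule, SEM1 of the lid and the ubiquitin receptor ADRM1, had log2 fold changes of 0.07 and 0.04. IPO9, the import receptor that human AKIRIN2 uses, was 3.30 ± 1.65 and 3.44 ± 0.767 (adjusted p = 0.575). Among the peptidases that act after the proteasome 0 of 5 were called by limma, and THOP1, at 0.198 ± 0.188 and 0.0872 ± 0.0942, had the smallest p (adjusted 0.145) and was the 1 gene of these with an unadjusted p under 0.05.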

How the data were processed

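Whole-blood RNA of 10 garden warblers was sequenced on days 1 and 5 (20 libraries). The authors trimmed reads with ERNE 2, mapped them with STAR to the zebra finch genome and quantified genes with StringTie. Versions are not given in the sources used here. The deposited tables hold FPKM, TPM and coverage (signal per base) as StringTie writes them, without scaling between libraries and without read counts. Counting error per gene is therefore unknown. The count test of the study was not used.

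FPKM was summed per symbol and divided by median-of-ratios factors over 4487 symbols above 0 in every library (1.06 to 1.28 in lean and 0.754 to 1.07 in fat libraries). The filter, a mean of 0.1 or more in FPKM before scaling, kept 7800 of 20898 symbols. On log2(scaled FPKM + 0.1), a scale that understates changes of low genes, models were fitted with limma 3.58.1 in R 4.3.3 (variance trend, two-sided tests). Calls had a Benjamini-Hochberg adjusted p under 0.05. The procedure was tested on simulated data, and the outcome is not given here. Bird was a term because each bird was sampled at both times. The study names no such term, so the model without it is an alternative. Libraries of the same bird deviated together (r 0.152 to 0.382, median −0.0245 for different birds). Each gene was first centered within each group, which pushes r of different birds slightly below 0, so their median is not an independent baseline. Pairs follow the replicate numbers of the labels, and the codes of birds 8 and 10 differ from the study's sample table. Depth was read from the median ratio of coverage to FPKM at FPKM above 1. Other steps used Python 3.11.15, pandas 2.3.3 and matplotlib 3.10.9.

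Members and gene lists were chosen with earlier results of these data known. Named genes were members called, active-site and inducible beta genes, PSME1 to PSME4, PSMF1, POMP and akirins, extremes of each class in level and change, and related genes called or with the smallest p of a list. Other members were named after their values were seen. Alternatives were pseudocounts of 0.01 and 1, no filter, a stricter filter (mean of 1 or more), quantile normalization, deposited FPKM or TPM without scaling, sample weights, a depth covariate, no bird term, 8 birds with matching codes, and each bird left out.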

Additional observations from a re-analysis of the deposited data

Results flagged for a closer look

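A single library stood apart from the other 9 of its group, by Dixon's criterion on the log2 scale, in 10 of 74 checks (37 members in 2 groups). Chance flags about 1 in 20, but this rate does not hold where libraries are listed at 0. The flags of PSMB3, PSMG3 and PSMG2 rest on such listings, so the count is not read as an excess over chance. Bird 8 gave the highest PSMA3 of lean libraries, 15.9 scaled FPKM with the next at 9.22, and the highest PSMF1 of fat libraries, 52.6 with the next at 23.3. Bird 3 gave the lowest PSMD6 of lean libraries (19.2, next 26.5), and in fat libraries the lowest PSMD12 (11.8, next 16.5) and the lowest PSMB3, listed at 0 with the next at 0.702. PSMD10 was lowest in lean bird 2 (0.694, next 2.02). Fat libraries were lowest for PSMC3 in bird 6 (2.99, next 9.12), for PSMD6 in bird 4 (19.9, next 27.7) and for PSMG3 in bird 5 (listed at 0, next 0.451). PSMG2 was 0.387 in fat bird 9 and listed at 0 in the other 9 fat libraries.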

How the results depend on the processing

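The count over all genes was 1034 and moved to 371 without the replicate block, 383 in 8 birds with matching codes, 596 without a filter, 2007 with TPM as deposited, 661 with quantile normalization and 615 with a depth covariate, and lay between 556 and 1137 with each bird left out (lowest without bird 10, and 675 and 663 without birds 2 and 5). Lower calls made up 60.9% of all calls, 95.1% with FPKM and 97.4% with TPM as deposited. Members called higher were 1, but 0 in 8 birds, with FPKM or TPM as deposited and with quantile normalization, and 1 to 2 with a bird left out (2 without bird 2). Members called lower were 2, but 0 without the replicate block, 1 in 8 birds, with pseudocount 0.01, without a filter, with quantile normalization and with a depth covariate, 12 with FPKM (where 18.5% of all genes were called lower) and 16 with TPM as deposited (25.1%), and 1 to 3 with a bird left out (1 without bird 3, 5, 6, 8 or 10). Related genes called higher were 1, but 0 without the replicate block, in 8 birds and with FPKM or TPM as deposited. Related genes called lower were 3 of the 38 fitted, but 1 in 8 birds and 2 to 3 with a bird left out. There were 2 without the replicate block, without a filter, with the stricter filter and with a depth covariate. They were 7 with FPKM and 15 with TPM as deposited, where 18.5% and 25.1% of all genes were called lower. With TPM as deposited the class medians moved to −0.71 in the alpha ring, −0.53 in the base, −0.48 in the lid, −0.30 in activators and −0.24 in assembly factors, and with FPKM as deposited to −0.43 in the base and −0.38 in the lid. Medians above 0 that turned below 0 were also those of the beta ring (−0.12 with FPKM and −0.22 with TPM), activators (−0.20 with FPKM) and assembly factors (−0.15 with FPKM, −0.11 in 8 birds and −0.044 without bird 8).

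Sign changes were followed only for the members and related genes named by the rule above, not for the other members. None of the estimates of these genes that changed sign was called. With FPKM and TPM as deposited they were −0.043 and −0.14 for POMP, −0.16 and −0.26 for PSMB2, and −0.10 and −0.20 for PSMB7. PSMC2 had −0.22 and −0.32, PSMD7 −0.028 and −0.12, and PSMD9 −0.085 and −0.18. PSME3 had −0.21 and −0.30, PSME4 −0.20 and −0.30, PSMF1 −0.017 and −0.11, and IPO9 −0.12 and −0.21. With quantile normalization the estimates that changed sign were −0.079 for PSMC2 and −0.038 for PSMD9. In 8 birds it was −0.021 for PSMC2, and with sample weights −0.0047 for PSMB2. With each bird left out PSMA7 ran from −0.063 to 0.048 and PSMB2 from −0.024 to 0.25. Both scalings as deposited move the median of all genes, to −0.35 and −0.43. The cause of the other changes was not tested.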
